A study of Mus musculus with 6 samples.

Results

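The genes described here encode the protein kinase mTOR, its complex partners and its closest regulators. They are Mtor, Rptor, Rictor, Mlst8, Akt1s1, Rheb, Tsc1, Tsc2, Ddit4 and Rps6kb1, listed by name with earlier results of these data known. All 10 were found among the 33157 rows of the count table, and all 10 passed the filter on low counts that left 13483 genes for testing. The samples were 6 bulk RNA-seq libraries of group 3 innate lymphoid cells (ILC3s), lymphocytes without antigen receptors that produce IL-22 and IL-17 at mucosal surfaces, sorted by surface markers from small intestines of mice with the wild-type genotype. In 3 of the libraries the cells had been cultured with the growth factor IGF-1 at 200 ng/mL together with the cytokine IFN-γ at 20 ng/mL, and in the other 3, the controls, with the same IFN-γ and no IGF-1. Both cultures lasted 4 h. The comparison below is therefore between libraries with and without added IGF-1, all from cells that received IFN-γ. No culture without IFN-γ was analysed here. The sources used here give no strain, age or sex of the mice and do not say whether cells of several mice were pooled. Nor do the labels say that the replicates came from separate mice or cultures. The p-values therefore set each group difference against the variation among these libraries only, and that variation may be technical.

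mTOR is a serine/threonine kinase that works in 2 complexes. mTORC1, built around Raptor (Rptor), promotes protein synthesis and growth when nutrients and growth factors are present, and mTORC2, built around Rictor, phosphorylates AKT and related kinases. IGF-1 signals through its receptor to PI3K and AKT. AKT phosphorylates TSC2 and so relieves the brake that the TSC1-TSC2 complex puts on RHEB, the small GTPase that switches on mTORC1 at the lysosome. Most of this control acts on phosphorylation and location of the proteins. The values here are RNA levels and contain no measure of kinase activity. In lymphocytes mTORC1 is known to support growth, metabolism and cytokine production.

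The promoter windows of Rheb, Tsc1 and Ddit4 are shown first. Rheb and Tsc1 are the members with the smallest p-values in the comparison, and Ddit4 is the member best known for control of its transcription. The windows run from 250 bases before to 50 bases after the start of the gene and are RefSeq sequences of the mouse build GRCm38.p6, at chr5:24842312-24842611 on the minus strand for Rheb, chr2:28640983-28641282 on the plus strand for Tsc1 and chr10:59951721-59952020 on the minus strand for Ddit4. Capitals mark the E-box CACGTG in Rheb and the hypoxia element core ACGTG in Ddit4, and the Tsc1 window held no match to any motif searched.
Rheb: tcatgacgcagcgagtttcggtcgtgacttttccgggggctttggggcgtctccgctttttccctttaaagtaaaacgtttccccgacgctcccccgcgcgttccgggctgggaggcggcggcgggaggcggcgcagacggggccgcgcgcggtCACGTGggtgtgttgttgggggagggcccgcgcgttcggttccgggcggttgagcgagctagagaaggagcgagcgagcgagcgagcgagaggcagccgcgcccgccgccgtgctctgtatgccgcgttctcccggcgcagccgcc
Tsc1: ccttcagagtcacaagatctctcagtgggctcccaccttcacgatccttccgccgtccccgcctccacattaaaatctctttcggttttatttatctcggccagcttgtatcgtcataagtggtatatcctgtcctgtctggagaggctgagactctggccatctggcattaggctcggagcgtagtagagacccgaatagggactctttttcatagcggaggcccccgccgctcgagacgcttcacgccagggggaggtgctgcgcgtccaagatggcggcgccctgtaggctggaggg
Ddit4: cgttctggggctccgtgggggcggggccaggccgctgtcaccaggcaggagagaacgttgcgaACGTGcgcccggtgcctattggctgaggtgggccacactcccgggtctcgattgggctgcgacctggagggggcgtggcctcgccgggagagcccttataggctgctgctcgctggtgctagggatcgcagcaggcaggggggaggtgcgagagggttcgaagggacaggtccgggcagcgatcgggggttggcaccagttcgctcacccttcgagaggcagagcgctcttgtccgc

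The 5 motifs searched on both strands were GTAAACA, bound by FOXO factors, the E-box CACGTG, the hypoxia element core ACGTG, which also lies within CACGTG, the ATF4 element TGATGNAA and the STAT element TTCNNNGAA. The E-box was found in 1 of the 10 members, Rheb, at position -96 from the gene start, and in 7.2% of the 32851 windows in the RefSeq table. ACGTG was found in 3 members, which were Rheb, Ddit4 at -187 and Rptor at -34, and in 19.6% of all windows. The STAT element was found in 1 member, Mtor, at -228, and in 8.3% of all windows. GTAAACA and TGATGNAA, found in 3.6% and 4.0% of all windows, had no match in a member. The members' windows were between 41.7% and 78.3% G and C, against a median of 52.7% for all windows. A match describes letters only and does not show binding.

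The libraries held between 32573713 and 39206449 counts, and between 16156 and 17677 genes with at least 1 count. Levels are given as CPM, the usual depth-scaled count, with edgeR's TMM scaling factors, which ranged between 0.954 and 1.03. The labelled cell type was checked against its markers. The 12 ILC3 markers summed to between 5571 and 6013 CPM with IGF-1 and between 5108 and 5438 CPM in controls. Among them Il23r, a subunit of the IL-23 receptor, averaged 244 ± 34.3 CPM with IGF-1 and 287 ± 21.8 CPM in controls, and Il7r, which encodes CD127 of the sorting gate, 417 ± 48.7 CPM with IGF-1 and 458 ± 21.5 CPM in controls (SD, n = 3 each). The largest part of the sum was Id2, at 2515 CPM with IGF-1 and 1931 CPM in controls. Tcf7 averaged 184 CPM with IGF-1 and 264 CPM in controls, and Ahr 59.0 CPM with IGF-1 and 81.5 CPM in controls. For Id2, Tcf7 and Ahr the groups did not overlap (edgeR adjusted p = 0.175, 0.0945 and 0.360). Of the 12 markers, 5 had a positive and 7 a negative log2 fold change. The T cell markers summed to between 36.2 and 47.0 CPM with IGF-1 and between 42.7 and 50.8 CPM in controls, and none of the list was called. Of the CD3 genes, Cd3e averaged 0.715 CPM with IGF-1 and 0.833 CPM in controls, Cd3d 4.88 CPM with IGF-1 and 2.35 CPM in controls, and Cd3g 13.3 CPM with IGF-1 and 9.01 CPM in controls. Cd4, which some ILC3s also express, averaged 23.1 CPM with IGF-1 and 33.3 CPM in controls, with no overlap between the groups (log2 fold change -0.52, edgeR adjusted p = 0.286). The 5 NK and ILC1 markers summed to between 33.5 and 44.2 CPM with IGF-1 and between 36.4 and 45.4 CPM in controls, with Eomes and Klra8 at 0 counts in every library. Of the others on that list, Klrb1c averaged 30.7 CPM with IGF-1 and 38.2 CPM in controls, Gzma 1.36 CPM with IGF-1 and 1.73 CPM in controls, and Prf1 5.38 CPM with IGF-1 and 2.02 CPM in controls, the last with no overlap between the groups (log2 fold change 1.42, edgeR adjusted p = 0.204). B cell and fibroblast markers reached at most 3.38 CPM in sum. The ILC2 list summed to between 18.0 and 21.3 CPM with IGF-1 and between 12.4 and 19.0 CPM in controls. The myeloid list summed to between 18.2 and 22.8 CPM with IGF-1 and between 12.7 and 18.2 CPM in controls. No gene of either list was called. The 5 epithelial markers summed to between 14.8 and 21.8 CPM with IGF-1 and between 33.2 and 45.9 CPM in controls. Nearly all of that was Epcam, at 17.6 ± 3.28 CPM with IGF-1 and 38.6 ± 6.97 CPM in controls (SD, n = 3 each; edgeR adjusted p = 0.0442), while Vil1 and Krt8 averaged under 1 CPM in both groups. The part of these differences in the results below was not tested.

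None of the 10 members passed the test between IGF-1 and control libraries. At a Benjamini-Hochberg adjusted p under 0.05, edgeR's quasi-likelihood test called 67 of 13483 genes, 31 higher and 36 lower with IGF-1, which is 0.497% of all genes tested. DESeq2 called 3.59% of its 11907 genes with an adjusted p and limma-voom called 0.712% of 13483 genes, and neither tool called a member. At an unadjusted p under 0.05, 2 members had smaller p-values, Rheb on the higher side and Tsc1 on the lower side, against 11.8% of all genes, of which 5.58% were higher and 6.24% lower. The fold change was negative in 7 members and positive in 3, and over all genes 6923 were negative and 6560 positive. The median log2 fold change of the members was -0.14, against -0.01 over all genes tested. In 4 members the 3 IGF-1 libraries and the 3 control libraries did not overlap, as was the case in 18% of all genes. In bulk libraries, fewer cells of a type and less RNA per cell cannot be told apart.

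**Figure D1:**
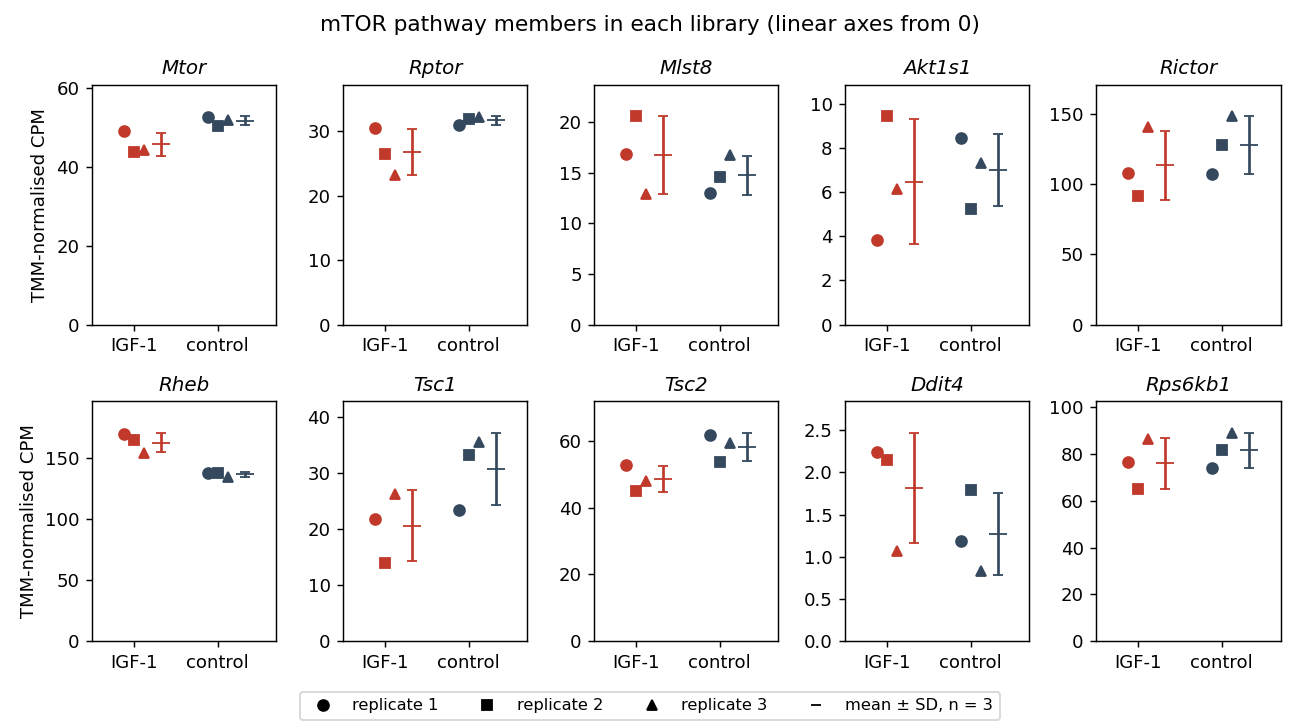
Level of each member in each library in TMM-normalised CPM, on linear axes that start at 0, with IGF-1 libraries on the left and controls on the right; points are libraries, with marker shape for the replicate number, and bars are the mean ± SD (n = 3). The groups do not overlap for Mtor, Rptor and Tsc2, which are lower with IGF-1, and for Rheb, which is higher.

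Among the subunits common to both complexes, Mtor, the kinase itself, had 49.1, 43.8 and 44.2 CPM in the IGF-1 libraries, against 52.7, 50.4 and 52.0 CPM in the control libraries. Every IGF-1 library lay below every control library, although the highest IGF-1 value was within 2 CPM of the lowest control value. The means were 45.7 ± 2.98 CPM with IGF-1 and 51.7 ± 1.17 CPM in controls (SD, n = 3 each), a log2 fold change of -0.18 (SE 0.13, edgeR adjusted p = 0.657). Its 95% interval ran from -27.4% to 7.81%, so no difference and differences of any size within it were all compatible with these libraries. Mlst8, the small WD-repeat subunit that binds the kinase domain in both complexes, had 16.8, 20.6 and 12.9 CPM with IGF-1, against 13.0, 14.6 and 16.8 CPM in controls. The groups overlapped fully, with IGF-1 replicate 3 the lowest of the 6 libraries and IGF-1 replicate 2 the highest. Its log2 fold change was 0.18 (SE 0.23, edgeR adjusted p = 0.830), and 0.01 without IGF-1 replicate 2, 0.34 without IGF-1 replicate 3, 0.10 without control replicate 1 and 0.28 without control replicate 3. In the GENCODE M21 annotation 25.6% of Mlst8's exon bases overlap Bricd5, a gene on the other strand, and reads of the pair cannot be told apart without strand.

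Raptor, encoded by Rptor, is the scaffold that presents substrates to mTORC1. It had 30.5, 26.5 and 23.3 CPM with IGF-1, against 31.0, 31.8 and 32.2 CPM in controls. The control libraries lay close together and above all 3 IGF-1 libraries, which were more spread, with coefficients of variation of 13.5% with IGF-1 and 2.05% in controls. The log2 fold change was -0.24 (SE 0.16, edgeR adjusted p = 0.620). Leaving out single libraries moved it between -0.35, with IGF-1 replicate 1 left out, and -0.15, with IGF-1 replicate 3 left out. Akt1s1 encodes PRAS40, an mTORC1 subunit that inhibits the kinase until AKT phosphorylates it. It had 3.84, 9.43 and 6.15 CPM with IGF-1, against 8.43, 5.23 and 7.33 CPM in controls. The IGF-1 libraries spanned the whole control range, and the log2 fold change of -0.11 (SE 0.37, edgeR adjusted p = 0.946) turned to 0.15 when IGF-1 replicate 1 was left out and to 0.04 when control replicate 1 was. It was -0.49 when IGF-1 replicate 2 was left out, and -0.29 when control replicate 2 was. In GENCODE M21, 6.50% of its exon bases overlap other genes, Tbc1d17 on the opposite strand and Mir707 on the same one.

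Rictor, the scaffold of mTORC2, had 108, 91.9 and 140 CPM with IGF-1, against 107, 128 and 148 CPM in controls. The lowest library was IGF-1 replicate 2 and the highest control replicate 3, with the groups interleaved between them. The log2 fold change was -0.17 (SE 0.18, edgeR adjusted p = 0.783), and it was -0.04 when IGF-1 replicate 2 was left out and -0.35 when replicate 3 of that group was. Without control replicate 1 it was -0.28, and without control replicate 3 -0.05.

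Of the upstream regulators, Rheb, the GTPase that activates mTORC1, had 170, 165 and 154 CPM with IGF-1, against 138, 138 and 134 CPM in controls. All IGF-1 libraries lay above all controls, and the spread within groups was the smallest of any member, with coefficients of variation of 4.91% with IGF-1 and 1.60% in controls. Means were 163 ± 7.99 CPM with IGF-1 and 137 ± 2.18 CPM in controls (SD, n = 3 each), 19.0% higher with IGF-1. The log2 fold change was 0.25 (SE 0.11) with a 95% interval from 0.265% to 41.1% higher. Its unadjusted p of 0.0471 did not survive adjustment over all genes (edgeR adjusted p = 0.413), and over all alternatives run the adjusted p ranged between 0.321 and 0.791. The direction held in all of them, with the log2 fold change between 0.22 and 0.29.

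Tsc1 encodes hamartin, which stabilises the TSC complex, and had the smallest p and the largest log2 difference in size of the 10 members. It had 21.7, 13.9 and 26.2 CPM with IGF-1, against 23.3, 33.2 and 35.5 CPM in controls. IGF-1 replicate 2 was lowest by far, and IGF-1 replicate 3 lay above control replicate 1, so the groups overlapped. Means were 20.6 ± 6.25 CPM with IGF-1 and 30.7 ± 6.45 CPM in controls (SD, n = 3 each). The log2 fold change was -0.57 (SE 0.25; unadjusted p of 0.0457, edgeR adjusted p = 0.408), with a 95% interval from -54.4% to -0.906%. It was -0.36 without IGF-1 replicate 2 (edgeR adjusted p = 0.758) and -0.78 when replicate 3 of that group was left out, and over all alternatives the adjusted p ranged between 0.175 and 0.815. IGF-1 replicate 2 also had the fewest detected genes of the 6 libraries, 16156. The part of that in the result was not tested.

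Tsc2 encodes tuberin, the subunit whose GTPase-activating domain switches RHEB off and that AKT phosphorylates. It had 52.7, 45.0 and 48.0 CPM with IGF-1, against 61.7, 53.5 and 59.3 CPM in controls. The groups did not overlap, but IGF-1 replicate 1 and control replicate 2 were less than 1 CPM apart. The log2 fold change was -0.26 (SE 0.13, edgeR adjusted p = 0.487), between -0.32 and -0.21 as single libraries were left out. In GENCODE M21, 10.9% of its exon bases overlap Pkd1 on the opposite strand.

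Ddit4 encodes REDD1, which restrains mTORC1 through the TSC complex and is induced by hypoxia, glucocorticoids and the integrated stress response. It was the least abundant member, with 87, 74 and 40 raw counts in the IGF-1 libraries, against 44, 60 and 30 in the control libraries. In CPM these were 2.24, 2.15 and 1.07 with IGF-1, against 1.18, 1.79 and 0.836 in controls, with the groups overlapping and the third replicate lowest in each. The log2 fold change was 0.52 (SE 0.64, edgeR adjusted p = 0.825) with a 95% interval from -0.90 to 1.94, the widest of any member. It was 0.34 without IGF-1 replicate 1, 0.79 without IGF-1 replicate 3, 0.85 without control replicate 2 and 0.29 without control replicate 3.

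Downstream, Rps6kb1 encodes S6 kinase 1, which mTORC1 phosphorylates and which acts on ribosomal protein S6. It had 76.4, 64.9 and 86.5 CPM with IGF-1, against 73.8, 81.6 and 88.9 CPM in controls. The groups overlapped, and the log2 fold change of -0.10 (SE 0.14, edgeR adjusted p = 0.849) shrank to -0.00 without IGF-1 replicate 2, the lowest library. It was -0.20 without IGF-1 replicate 3, -0.17 without control replicate 1 and -0.03 without control replicate 3. In GENCODE M21, 1.93% of its exon bases overlap Rnft1, and 1.27% of those of Rptor overlap Rptoros.

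**Figure D2:**
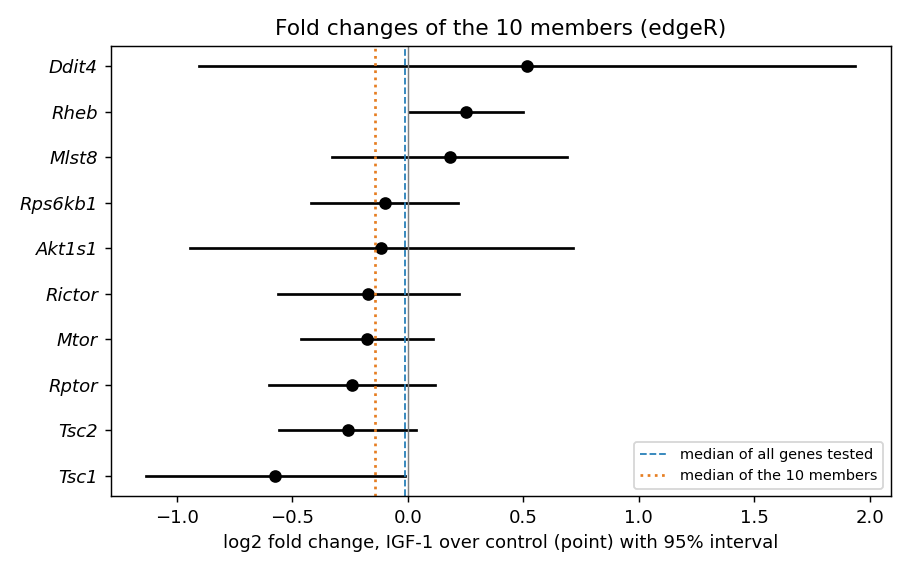
Log2 fold change of each member, IGF-1 over control, from edgeR's quasi-likelihood fit; points are estimates, bars 95% intervals, the dashed line the median of all genes tested (-0.01) and the dotted line that of the members (-0.14). The intervals of Rheb, all above 0, and Tsc1, all below 0, are not adjusted for the 13483 genes tested, and Ddit4 has the widest interval, from -0.90 to 1.94.

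Ratios within a library compare members independently of the library's scaling, and 5 were computed from the deposited counts. The Rptor to Rictor ratio, an index of mTORC1 against mTORC2 scaffold RNA, was 0.282, 0.288 and 0.166 in IGF-1 libraries, against 0.289, 0.249 and 0.217 in control libraries. The Tsc1 to Tsc2 ratio was 0.412, 0.308 and 0.546 with IGF-1, against 0.378, 0.621 and 0.598 in controls. Ddit4 to Mtor was 0.0456, 0.0490 and 0.0242 with IGF-1, against 0.0224, 0.0356 and 0.0161 in controls. In these and in Rptor to Mtor and Rictor to Mtor the groups overlapped. The mean log2 differences, IGF-1 minus control, were -0.07 for Rptor to Rictor, -0.34 for Tsc1 to Tsc2 and 0.69 for Ddit4 to Mtor, with two-sided exact permutation p-values of 0.8, 0.3 and 0.2. Rptor to Mtor differed by -0.07 and Rictor to Mtor by -0.00, with exact permutation p-values of 0.5 and 1. With 3 libraries against 3 the smallest p such a test can give is 0.1, so no ratio could pass 0.05. After adjustment over the 5 ratios the smallest was 0.75.

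To compare the genes with each other, CPM were divided by the exon length in kb of each gene in GENCODE M21, a GRCm38 annotation, whereas the counts were made on GRCm39. On this scale Rheb was highest, at 91.2 ± 4.48 CPM per kb with IGF-1 and 76.7 ± 1.22 CPM per kb in controls (SD, n = 3 each). Rictor followed at 12.2 ± 2.65 CPM per kb with IGF-1 and 13.7 ± 2.21 in controls, and Rps6kb1 at 9.46 ± 1.34 with IGF-1 and 10.1 ± 0.938 in controls. Tsc2 was at 7.66 ± 0.612 CPM per kb with IGF-1 and 9.17 ± 0.665 in controls, which made these 4 the most abundant members per kb of exon. Next came Mtor at 5.20 ± 0.339 CPM per kb with IGF-1 and 5.88 ± 0.133 in controls, and Rptor at 4.06 ± 0.546 with IGF-1 and 4.80 ± 0.0982 in controls. Mlst8 was at 4.31 ± 0.984 CPM per kb with IGF-1 and 3.80 ± 0.494 in controls. Averaged over the 6 libraries, the raptor gene Rptor stood at 4.43 and Mlst8 at 4.05 CPM per kb. Tsc1 was at 2.66 ± 0.807 CPM per kb with IGF-1 and 3.96 ± 0.832 in controls, and Akt1s1 at 2.60 ± 1.13 with IGF-1 and 2.81 ± 0.652 in controls. Ddit4 was lowest, at 1.04 ± 0.371 CPM per kb with IGF-1 and 0.724 ± 0.276 in controls. Between neighbours in this order the 6 libraries did not overlap for Rheb over Rictor, Tsc2 over Mtor, Mtor over Rptor and Akt1s1 over Ddit4. They overlapped for Rictor and Rps6kb1, Rps6kb1 and Tsc2, Rptor and Mlst8, Mlst8 and Tsc1, and Tsc1 and Akt1s1. Per kb of coding sequence instead, Rheb stayed first at 271 and Ddit4 last at 2.25 CPM per kb, but the order between them differed, with Rps6kb1 second at 40.6 and Mtor ninth at 6.31. Mlst8, at 16.1, then stood above Tsc2, at 9.84, so Tsc2 was not among the 4 most abundant on that scale.

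**Figure D3:**
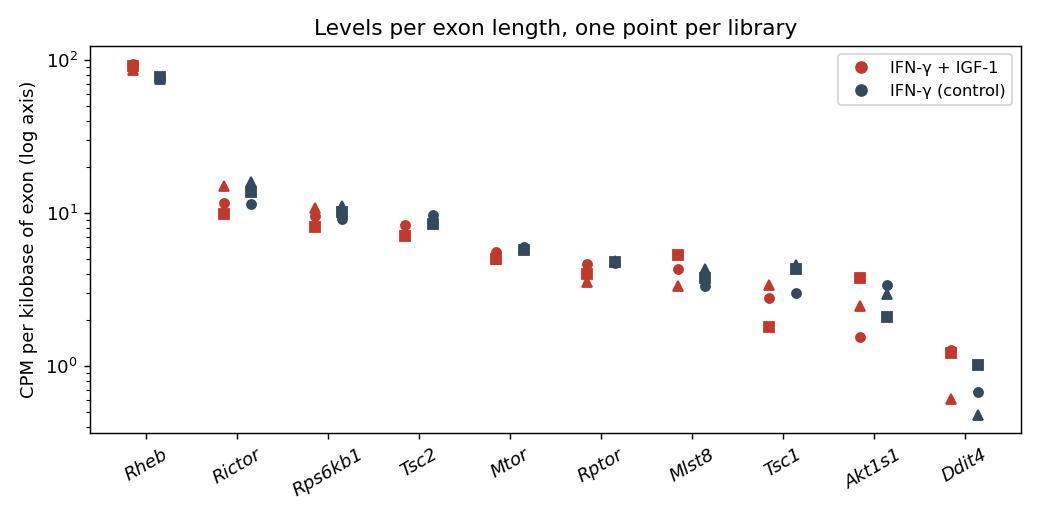
Level of each member in CPM per kb of exon on a log axis, with 3 IGF-1 libraries and 3 control libraries per gene. Rheb stands above the other 9 genes in every library, and Ddit4 lies at the bottom.

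The members' patterns over the 6 libraries were compared by the root mean square (RMS) difference of their centred log2 CPM, a description with no test. The most alike pairs were Mtor and Tsc2 at 0.0635, Mtor and Rptor at 0.0876 and Rictor and Rps6kb1 at 0.0951, and the least alike was Tsc1 and Ddit4 at 0.864. Among the 8564 genes with a mean of at least 10 CPM, the 3 nearest to Tsc1 were Malat1 at 0.103, Tnrc6b at 0.107 and Gpatch2 at 0.125. Malat1, an abundant nuclear long non-coding RNA, had 733, 439 and 997 CPM with IGF-1, against 733, 1204 and 1153 CPM in controls. Tnrc6b, which encodes a partner of Argonaute in microRNA silencing, had 93.0, 73.0 and 120 CPM with IGF-1, against 120, 148 and 169 CPM in controls. Like Tsc1, each of the 3 genes was lowest in IGF-1 replicate 2. They were picked for likeness to Tsc1 over these same libraries. That low value and their negative fold changes therefore follow from the choice. Their log2 fold changes were -0.51 (SE 0.27), -0.61 (SE 0.19) and -0.34 (SE 0.24), none called by edgeR (adjusted p = 0.501, 0.220 and 0.638). DESeq2 called Tnrc6b (adjusted p = 0.0367), and edgeR with no filter on low counts called Tnrc6b (adjusted p = 0.00534) and Malat1 (adjusted p = 0.0330). With IGF-1 replicate 2 left out, Malat1 was at -0.25 and Gpatch2 at -0.10, and with IGF-1 replicate 3 left out they were at -0.81 and -0.54. Without control replicate 3 Gpatch2 was at -0.21.

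**Figure D4:**
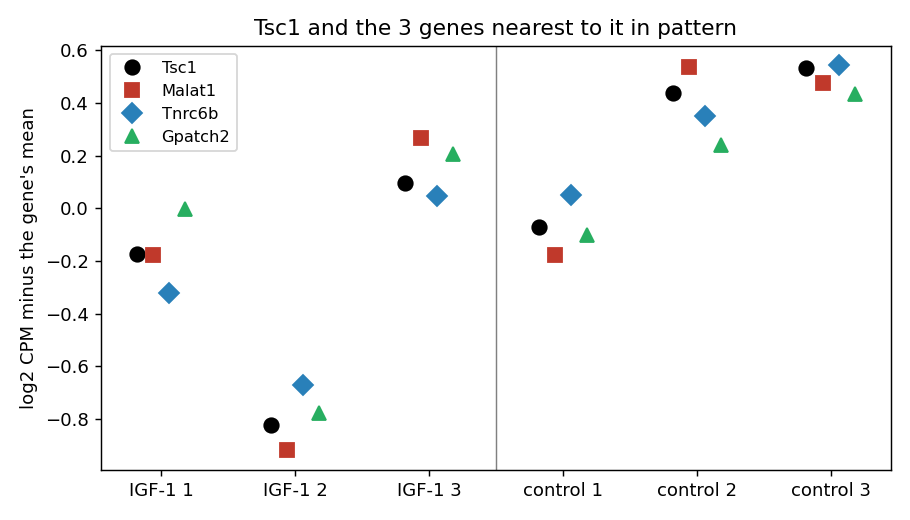
Log2 CPM of Tsc1 and of the 3 genes nearest to it, each minus its own mean over the 6 libraries, by library. The 3 genes were picked for likeness to Tsc1 over these same libraries. All 4 genes are lowest in IGF-1 replicate 2, and for Tsc1 IGF-1 replicate 3 lies above control replicate 1.

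Around these 10 genes, 97 further genes in 8 lists of the pathway and of known inducers of Ddit4 were looked at, of which 93 passed the filter. edgeR and limma-voom called 0 of the 93, against 0.497% and 0.712% of all genes. At an unadjusted p under 0.05, 7 were higher and 12 lower with IGF-1, of 44 with a positive and 49 with a negative fold change, and in 21 the groups did not overlap. That is 19 of 93 against 11.8% of all genes for the unadjusted p, and 21 of 93 against 18% for the groups that did not overlap. Their median log2 fold change was -0.01, equal to that of all genes to 2 decimals. DESeq2 called 7 of them, against 3.59% of its genes with an adjusted p, a value that not all of the 93 had. Ero1a and Eif4e were higher and Grb10, Castor2, Pdcd4, Maf1 and Rhebl1 lower with IGF-1. Maf1 and Eif4e are named for that call, after their values were seen, while the other genes below are the 2 with the smallest p of each list.

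Substrates and effectors of mTOR held the gene closest to the threshold. Of 19 tested, 1 was higher and 4 were lower at an unadjusted p under 0.05, against 5.58% of all genes higher and 6.24% lower, with a median log2 fold change of -0.21. Grb10, an adaptor that binds the insulin and IGF-1 receptors and is stabilised by mTORC1, had 34.8, 43.0 and 37.0 CPM with IGF-1, against 53.8, 83.6 and 66.2 CPM in controls. The groups did not overlap, and the log2 fold change was -0.83 (SE 0.18; adjusted p = 0.0928 by edgeR and 0.0015 by DESeq2). Pdcd4, a translation inhibitor whose protein S6 kinase marks for destruction, had 141, 118 and 88.8 CPM with IGF-1, against 184, 170 and 202 CPM in controls (log2 fold change -0.67, SE 0.17; adjusted p = 0.138 by edgeR and 0.00537 by DESeq2). Maf1, the repressor of RNA polymerase III that mTORC1 inactivates, had a log2 fold change of -0.55 (SE 0.15; adjusted p = 0.174 by edgeR and 0.0137 by DESeq2). Eif4e, the cap-binding protein held back by the 4E-BPs, had 211, 214 and 173 CPM with IGF-1, against 156, 151 and 127 CPM in controls (log2 fold change 0.46, SE 0.14; adjusted p = 0.197 by edgeR and 0.0425 by DESeq2).

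Of the 8 other subunits and TSC or RHEB partners, 1 was higher and 3 were lower at an unadjusted p under 0.05, where 11.8% of all genes were in either direction. Rhebl1, a close relative of Rheb, had 13.0, 13.1 and 10.8 CPM with IGF-1, against 28.8, 19.7 and 16.9 CPM in controls, opposite in direction to Rheb (log2 fold change -0.83, SE 0.24; adjusted p = 0.186 by edgeR and 0.0465 by DESeq2). The Rhebl1 value was -0.58 without control replicate 1 and -0.99 without control replicate 3. DESeq2 with the replicate block did not call Rhebl1 (adjusted p = 0.0722). The difference between Rheb and Rhebl1 was not tested. Telo2, part of the chaperone that assembles mTOR and related kinases, stood at a log2 fold change of -0.65 (SE 0.22, edgeR adjusted p = 0.272).

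In the branch that senses amino acids, 13 genes of a first list were tested. They are those of the Rag GTPases and Ragulator, which dock mTORC1 on the lysosome, of folliculin and its partners, and Slc38a9. Their median log2 fold change was 0.11. At an unadjusted p under 0.05, 1 was higher and 2 were lower, against 11.8% of all genes in either direction. Neither of the 2 lower genes was a Rag GTPase or Ragulator gene. Lamtor4, a Ragulator subunit, had 155, 187 and 133 CPM with IGF-1, against 134, 96.7 and 107 CPM in controls, with the groups overlapping. Its log2 fold change was 0.49 (SE 0.17, adjusted p = 0.266 by edgeR, 0.0839 by DESeq2 and 0.0496 by edgeR with no filter on low counts). It was 0.35 without IGF-1 replicate 2 and 0.63 without control replicate 1. Slc38a9, the lysosomal arginine transporter and sensor, was at -0.38 (SE 0.15, edgeR adjusted p = 0.350). Of the 18 genes of GATOR, KICSTOR and the sensors, 1 was higher and 1 lower, a share close to those 11.8%. Castor2, a relative of the cytosolic arginine sensor Castor1, had 5.97, 8.47 and 4.78 CPM with IGF-1, against 15.7, 12.7 and 17.1 CPM in controls, with no overlap (log2 fold change -1.24, SE 0.28; adjusted p = 0.101 by edgeR and 0.00353 by DESeq2). Sec13, which also serves the nuclear pore and COPII coats, was at 0.36 (SE 0.13, edgeR adjusted p = 0.303). Of the 12 upstream kinases and their partners tested, none had an unadjusted p under 0.05. The nearest were the LKB1 partner Strada at -0.37 (SE 0.17, edgeR adjusted p = 0.440) and the AMPK subunit Prkag2 at 0.45 (SE 0.22, edgeR adjusted p = 0.459), which was 0.22 without IGF-1 replicate 2.

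Lists of genes induced by the signals known to induce Ddit4 were mixed. Of 8 hypoxia genes, 1 was higher at an unadjusted p under 0.05, near the 11.8% of all genes. This was Ero1a, an oxidase of the endoplasmic reticulum, with 94.1, 94.4 and 91.4 CPM with IGF-1, against 66.4, 67.1 and 51.4 CPM in controls (log2 fold change 0.60, SE 0.14; adjusted p = 0.108 by edgeR and 0.00805 by DESeq2). Vegfa, an angiogenic factor induced by hypoxia, was at -0.88 (SE 0.47, edgeR adjusted p = 0.507). Of 7 glucocorticoid-induced genes, 1 was higher and 2 were lower, against the same 11.8%, with Fkbp5 at 0.41 (SE 0.14, edgeR adjusted p = 0.277) and Klf9 at -0.38 (SE 0.13, edgeR adjusted p = 0.250). Of 8 ATF4 and stress response genes, 1 was higher, again near 11.8%, and this was Asns, the asparagine synthetase, at 0.76 (SE 0.34, edgeR adjusted p = 0.405), and the stress-induced factor Atf3 was at -0.39 (SE 0.20, edgeR adjusted p = 0.479). Single libraries moved these values: Asns was at 0.48 without control replicate 1 and 1.23 without control replicate 2, Atf3 at -0.59 without IGF-1 replicate 3 and -0.20 without control replicate 3, and Vegfa at -0.56 without IGF-1 replicate 2.

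**Figure D5:**
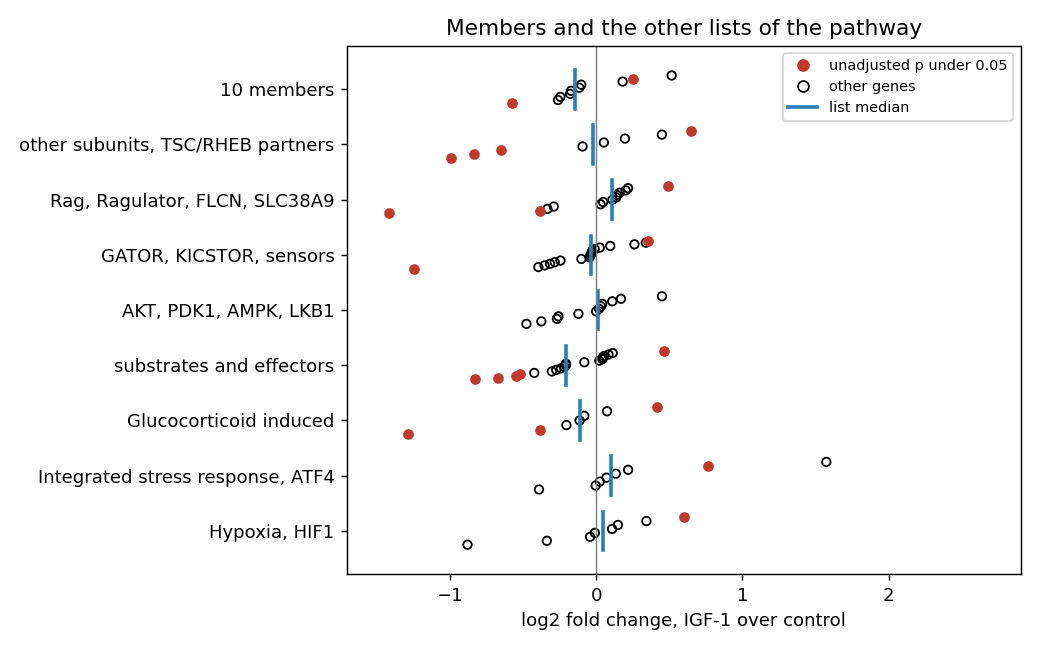
Log2 fold change, IGF-1 over control, of the 10 members (top) and of the genes of each list; filled points have an unadjusted p under 0.05, open points are the others, and vertical bars are list medians. No filled point reached an edgeR adjusted p under 0.05, and the list medians lie between -0.21 and 0.11.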

How the data were processed

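The deposited table holds raw counts per gene for 6 libraries, 3 per group, grouped by their titles. Per the labels' protocols the libraries come from the SMART-Seq HT kit, a full-length cDNA method without strand information. Per the submitters' processing notes, the authors used featureCounts 1.5.3, SAMtools 1.15.1, HISAT2 2.2.1 and fastp 0.23.2 with GRCm39. The role of each tool, the annotation release and the handling of multi-gene reads were not given in the sources used here.

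Low genes were dropped with filterByExpr at a count minimum of 10 and a total of 15, after which 13483 remained and 0.0806% of counts were gone. The comparison used edgeR 4.0.16 under R 4.3.3 (TMM, glmQLFit, glmQLFTest, group as the only term, Benjamini-Hochberg adjustment over all genes at 0.05). The SE is the log2 fold change divided by the square root of F, and 95% intervals use the t distribution. CPM are TMM-scaled. Ratios were tested by exact permutation. Exon lengths and the overlaps of exons with other genes came from GENCODE M21 (GRCm38), whose coordinates were not joined to the counts, and promoters from RefSeq (GRCm38.p6), where all 10 members matched. Alternatives were other scalings, filters and thresholds, a replicate block, DESeq2 1.42.0, limma-voom (limma 3.58.1) and leaving out each library. The main edgeR fit was tested on simulated counts. Counts of replicates differed beyond sampling noise in every pair, and that variation may be technical. Each library counted as 1 replicate, although the labels do not say that replicates came from separate mice or cultures.

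The members and lists were chosen with earlier results of these data known. Named genes are the 10 members, the 2 genes with the smallest p per list, any called gene of a list, the 3 nearest in pattern to the member with the smallest p, and defining cell markers. The value of 1 marker is not reported here.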

Additional observations from a re-analysis of the deposited data

How the results depend on the processing

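No member was called under any alternative. The 67 genes called over the whole table became 429 with no filter, 178 with at least 10 CPM required in 3 libraries, 427 with DESeq2, 369 with DESeq2 and the replicate block, 8 with edgeR and the replicate block, 144 at an adjusted p under 0.1, and between 0 and 55 when 1 library was left out (0 without IGF-1 replicate 1, 1 without IGF-1 replicate 2, 17 without IGF-1 replicate 3, 55 without control replicate 1, 6 without control replicate 2 and 2 without control replicate 3). The count of 0 over the 93 genes of the lists became 7 of 97 with no filter, 4 of 77 with the stricter filter and, of the 93 again, 7 with DESeq2, 6 with DESeq2 and the replicate block, 1 at an adjusted p under 0.1 and between 0 and 1 with a library left out, the 1 being Grb10 without control replicate 1 (edgeR adjusted p = 0.0489). Grb10, Castor2, Pdcd4 and Ero1a were called with no filter, with the stricter filter and by DESeq2 with and without the block. The cause was not tested. The titles do not say that a replicate number marks a shared mouse or day, so the numbers are not taken to pair libraries. Correlations of same-numbered libraries' deviations from the group means were -0.239, -0.112 and 0.188. With 3 libraries per group these cannot decide whether the numbers pair libraries, because deviations within a group balance out. The signs of the members' fold changes held under every alternative except for Akt1s1, between -0.49 and 0.15 with a library left out. The log2 differences of the ratios ranged between -0.21 and 0.19 for Rptor to Rictor and between -0.19 and 0.11 for Rictor to Mtor. Rptor to Mtor was -0.12 when IGF-1 replicate 1 was left out, and -0.00 when replicate 3 of that group was. Tsc1 to Tsc2 was -0.13 without IGF-1 replicate 2, -0.54 without IGF-1 replicate 3, -0.57 without control replicate 1 and -0.21 without control replicate 2. Ddit4 to Mtor was 0.42 without control replicate 3. The median of the members ranged between -0.19 and -0.07, with -0.07 found without control replicate 3. Ddit4 and Akt1s1 do not pass the stricter filter. Counts of 30 to 87 limit what can be said of Ddit4.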
